A study of Arabidopsis thaliana with 16 samples.

Results

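Every genotype in this RNA-seq study of Arabidopsis thaliana roots was sampled in 4 replicates, and the libraries numbered 3 and 4 are set here against those numbered 1 and 2, with genotype as a block. Each side holds 8 of the 16 libraries, 2 per genotype. The genotypes are the double mutant mctp3-2 / mctp4-1 (called double), the single mutants mctp4-1 (Salk_089046C) and mctp3-2 (GABI_285E06), and the wild type (WT), all in the Col-0 ecotype. All groups share the tissue (root), the age of 5 days and growth on MS plates in long days without a further treatment, and each mutant allele is represented by a single insertion line. MCTP proteins hold endoplasmic reticulum and plasma membrane together inside plasmodesmata, the channels between plant cells. The labels number the replicates but give no time of harvest and do not say what the numbers stand for, and the columns of the deposited matrix carry the numbers 2 and 3 for replicates 1 and 2 and 6 and 7 for replicates 3 and 4. Of 33560 genes in the matrix, the 19239 with at least 1 FPKM (fragments mapped to a gene, scaled by the authors for its length and the library's size) in at least 4 libraries were tested.

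The plant circadian clock is a loop of transcription factors that are made at different times of day. The MYB-like factors CCA1 and LHY accumulate around dawn and bind a short DNA motif, the evening element, in the promoters of genes that are expressed towards dusk. The pseudo-response regulators (PRR) follow through the day in the order PRR9, PRR7, PRR5 and then PRR3 and TOC1, and repress CCA1 and LHY. Around dusk the evening complex of ELF3, ELF4 and LUX represses PRR9 and other day genes. Clock genes cycle in roots as well, and the share of the root transcriptome that cycles was not examined here.

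The called dawn, morning, day and evening clock genes each differed between the replicate sets in the same direction in all 4 genotypes. Dawn and morning genes were lower in replicates 3 and 4, by up to 3.42 on the log2(FPKM + 1) scale for LNK4, and all evening genes were higher, by up to 4.14 for JMJD5. Of 14 dawn and morning genes tested 11 fell, of 5 day genes 4 rose and 1 fell, and of 6 evening genes all 6 rose (limma, adjusted p under 0.05 over all genes). The background was high: 8551 of all 19239 genes tested passed the same threshold (44.4%), with 5364 (27.9%) higher and 3187 (16.6%) lower in replicates 3 and 4. Most of those differences were small: 85 called genes rose and 256 fell by more than 1 on the log2 scale. The median of the signed differences over all genes tested, in which rises and falls offset each other, was 0.05. The scaling of the libraries set which direction was the more frequent: 62.7% of the called genes were higher on the deposited FPKM, and 49.6% after rescaling by the median of ratios. Without replicate 4 the count was 5643, and with 1 mean per replicate number, which leaves 2 values on each side, it was 5488 (28.5%). With the correlation among libraries of the same number estimated from the data, 8574 genes (44.6%) were called.

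The first principal component of the genotype-centred values held 42.4% of the variance and ordered the libraries by replicate set. The 8 libraries of replicates 3 and 4 lay between 19.65 and 28.29 on it, against −30.71 to −19.67 for the 8 of replicates 1 and 2. The second component held 11.1%. On it replicate 1 stood at −13.61 to −16.68 in mctp4-1, mctp3-2 and WT and replicate 2 at 12.36 to 21.49, while double had replicate 1 at 13.05 and replicate 2 at −14.95. Replicate 3 stood at −9.65 to −7.02 and replicate 4 at 2.21 to 10.7 in all 4 genotypes. Libraries of the same number thus lay on the same side of this component, with the exception of replicates 1 and 2 of double. For the median gene, replicate set held 26.0% of the sum of squares and genotype 11.3%, and the set's share was the larger in 62.9% of genes. These raw shares make no allowance for noise or for genotype having more levels than the set. The 11.3% is therefore no measure of an effect of genotype.

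**Figure D1:**
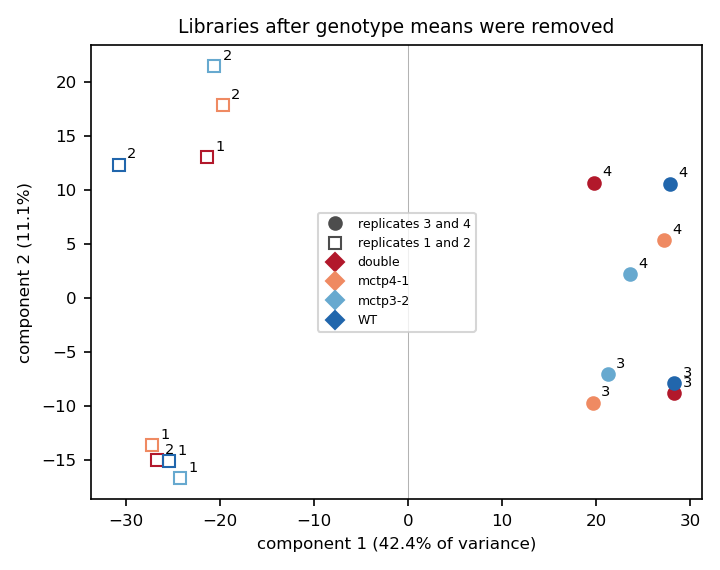
Positions of the 16 libraries on components 1 (x axis, 42.4% of the variance) and 2 (y axis, 11.1%) after the mean of each genotype was removed from log2(FPKM + 1). Filled circles are replicates 3 and 4, open squares are replicates 1 and 2, colours are genotypes and the digits are replicate numbers; all filled circles lie at 19.65 or above on component 1 and all open squares at −19.67 or below.

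The summed values and the composition of the libraries overlapped between the sets. Summed FPKM per library was 894309 to 946014 in replicates 3 and 4 and 887430 to 1016221 in replicates 1 and 2, and genes not annotated as protein-coding held 1.36 to 4.38% and 1.75 to 5.04% of it. Read counts were not used and the depth of the libraries is unknown. The target of mctp4-1, taken as AT1G51570, stood at 2.55 to 5.50 FPKM in the 8 libraries labelled with that allele, against 22.9 to 30.2 FPKM in the other 8. The target of mctp3-2, taken as AT3G57880, went the other way, with 12.4 to 16.4 FPKM in libraries labelled with the allele, against 5.53 to 8.03 FPKM in the rest. Neither gene was called between the replicate sets (adjusted p = 0.0617 and 0.623), and no direction between genotypes is drawn here. Nothing in the labels says that the replicates came from separate plates or sowings, so the p-values measure only the spread between these libraries. Nor do they say whether libraries that share a number were grown or collected together.

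CCA1 (AT2G46830), the dawn MYB factor at the head of the loop, had 1.14 FPKM in its lowest, 1.26 in its median and 2.01 in its highest library of replicates 3 and 4, against 15.2, 15.9 and 18.4 FPKM in replicates 1 and 2. Its partner LHY (AT1G01060) had 1.49, 1.81 and 2.24 FPKM in replicates 3 and 4, against 15.8, 20.8 and 23.3 FPKM in replicates 1 and 2. No library of either set reached the other set's range for these genes. The group means of CCA1 were 1.41 ± 0.333 FPKM in replicates 3 and 4 and 16.4 ± 1.2 FPKM in replicates 1 and 2 (SD, n = 8 each), an 11.6-fold lower level, with a log2 difference of −2.86 ± 0.07 (SE; limma, adjusted p = 1.63e-13). LHY fell by 2.89 ± 0.09 (adjusted p = 9.72e-13), with differences of −2.61 in double, −2.71 in mctp4-1, −3.13 in mctp3-2 and −3.12 in WT.

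The LNK proteins are co-activators that lack a DNA-binding domain and are recruited by the MYB-like factors. LNK4 (AT5G06980) was at 0.517, 0.636 and 1.06 FPKM (lowest, median, highest) in replicates 3 and 4, against 12.3, 17.8 and 23.3 FPKM in replicates 1 and 2. Its fall of 3.42 ± 0.12 on the log2 scale (adjusted p = 5.21e-12) was the second largest decrease among all genes whose sets did not overlap. LNK3 (AT3G12320) averaged 0.787 ± 0.296 FPKM in replicates 3 and 4 and 11.1 ± 1.86 FPKM in replicates 1 and 2, and LNK2 (AT3G54500) averaged 3.49 ± 0.336 and 28.0 ± 2.85 FPKM in the same sets. LNK1 (AT5G64170) differed least of the family, with 7.21 ± 0.682 FPKM in replicates 3 and 4 and 16.4 ± 1.83 FPKM in replicates 1 and 2, and it fell by 1.08 ± 0.07. The 4 LNK genes all fell, and in none did the sets overlap, where 4.27% of all genes tested were lower without overlap.

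The REVEILLE (RVE) family, MYB-like relatives of CCA1 and LHY, was split. RVE8 (AT3G09600), an activator of evening genes, was at 2.70, 3.04 and 3.71 FPKM in replicates 3 and 4, against 10.8, 11.7 and 14.7 FPKM in replicates 1 and 2, and fell by 1.64 ± 0.08 (adjusted p = 2.28e-10). RVE1 (AT5G17300), which links the clock to auxin, fell by 1.07 ± 0.10 (5.22 ± 0.625 FPKM in replicates 3 and 4 and 12.2 ± 2.29 FPKM in replicates 1 and 2). RVE4 (AT5G02840) fell by 0.68 ± 0.08 and RVE7 (AT1G18330) by 0.41 ± 0.13, the second with overlapping libraries. RVE2 (AT5G37260) averaged 67.6 ± 8.64 FPKM in replicates 3 and 4 and 65.3 ± 12.7 FPKM in replicates 1 and 2 (adjusted p = 0.671). The homeodomain-like loci AT5G52660 and AT4G01280 differed by −0.05 and −0.06 (adjusted p = 0.634 and 0.531), and RVE3 (AT1G01520) did not pass the filter on low values. Of the 7 RVE and RVE-like genes tested, 4 fell and 3 were not called.

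The signs of the PRR genes followed their known order of expression, while the sizes did not. PRR9 (AT2G46790), the morning member, was at 0.847, 1.1 and 1.61 FPKM in replicates 3 and 4, against 7.43, 9.52 and 11.8 FPKM in replicates 1 and 2, a fall of 2.25 ± 0.09 (adjusted p = 3.82e-11). PRR7 (AT5G02810) fell by 0.54 ± 0.10 with overlapping libraries, at 8.79 ± 1.36 FPKM in replicates 3 and 4 and 13.2 ± 1.93 FPKM in replicates 1 and 2. PRR5 (AT5G24470) rose by 1.07 ± 0.11, at 14.2 ± 1.65 FPKM in replicates 3 and 4 and 6.29 ± 1.36 FPKM in replicates 1 and 2. The signs of the later members were opposite to that of PRR9. PRR3 (AT5G60100), which protects TOC1 from degradation, was at 6.01, 6.4 and 7.89 FPKM in replicates 3 and 4, against 0.223, 0.633 and 0.910 FPKM in replicates 1 and 2, a rise of 2.24 ± 0.09. TOC1 (AT5G61380), the evening member, was at 47.3, 49.0 and 57.9 FPKM in replicates 3 and 4, against 14.3, 16.6 and 18.3 FPKM in replicates 1 and 2, a rise of 1.55 ± 0.06 (adjusted p = 1.03e-11). PRR5 differed less in double (0.57) than in mctp4-1 (1.32), mctp3-2 (1.09) and WT (1.30), but the interaction of genotype and replicate set was called for a single gene in the whole table, which was not PRR5.

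FKF1 and GI form the light-dependent complex that removes CDF repressors in the afternoon. FKF1 (AT1G68050), a blue-light receptor and F-box protein, was at 6.66, 8.60 and 9.58 FPKM in replicates 3 and 4, against 0.690, 0.926 and 1.16 FPKM in replicates 1 and 2. It rose by 2.28 ± 0.08 (adjusted p = 5.21e-12), a 9.05-fold higher mean. GI (AT1G22770) differed far less, with 16.9, 19.2 and 21.8 FPKM in replicates 3 and 4, against 12.6, 14.2 and 16.1 FPKM in replicates 1 and 2, and rose by 0.44 ± 0.06. For both genes the lowest library of replicates 3 and 4 lay above the highest of replicates 1 and 2.

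The evening complex rose as a whole. ELF4 (AT2G40080) was at 243, 273 and 304 FPKM in replicates 3 and 4, against 28.6, 35.8 and 54.7 FPKM in replicates 1 and 2, a rise of 2.90 ± 0.09 (adjusted p = 5.21e-12). LUX (AT3G46640), its DNA-binding subunit, averaged 53.5 ± 3.05 FPKM in replicates 3 and 4 and 16.9 ± 1.17 FPKM in replicates 1 and 2, and its close relative BOA (AT5G59570) averaged 10.2 ± 0.845 and 3.19 ± 0.532 FPKM in the same sets. ELF3 (AT2G25930), the scaffold of the complex, rose by 0.95 ± 0.06, the smallest rise of the 3 subunits, at 33.7 ± 2.73 FPKM in replicates 3 and 4 and 17.0 ± 1.28 FPKM in replicates 1 and 2. JMJD5 (AT3G20810), a jumonji-domain dioxygenase with an evening peak, was at 26.8, 30.8 and 34.1 FPKM in replicates 3 and 4, against 0.495, 0.784 and 1.11 FPKM in replicates 1 and 2. Its 38.3-fold higher mean and its rise of 4.14 ± 0.08 (adjusted p = 7.48e-15) were the largest increase of all genes whose sets did not overlap. All 6 evening genes were without overlap between the sets, where 7.42% of all genes tested were so in this direction and 4.27% in the other; among the 14 dawn and morning genes 10 were without overlap, all lower.

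**Figure D2:**
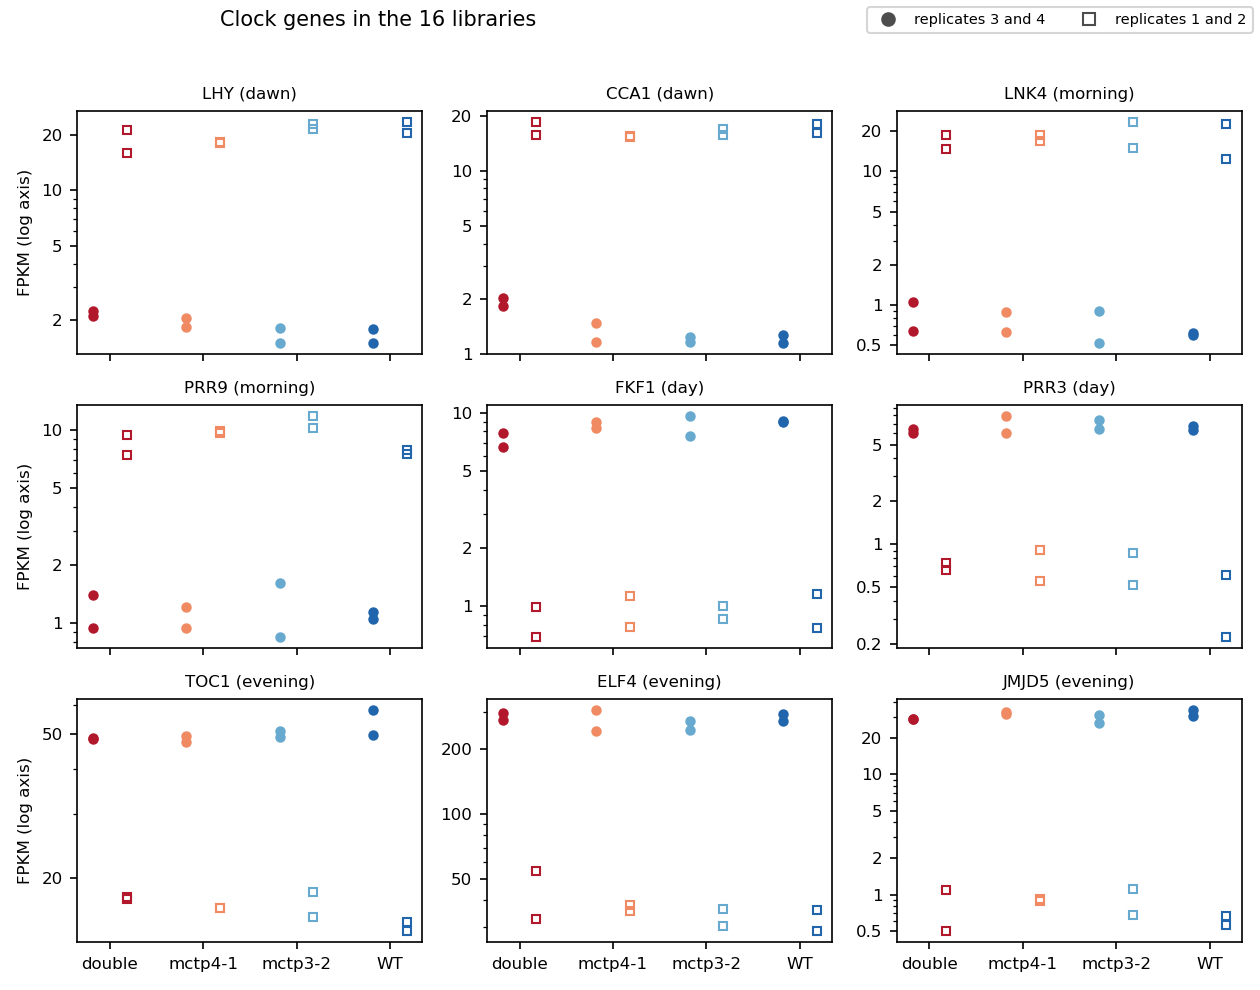
FPKM of 9 clock genes (log y axis, one panel per gene) in each library by genotype (x axis). Filled circles are replicates 3 and 4 and open squares are replicates 1 and 2; the circles lie below the squares for LHY, CCA1, LNK4 and PRR9 and above them for FKF1, PRR3, TOC1, ELF4 and JMJD5 in all 4 genotypes, as for TOC1 at 47.3 to 57.9 FPKM against 14.3 to 18.3 FPKM.

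Clock components listed here as flat or weakly cycling in their transcripts, a grouping that these data cannot check, moved little. Of 9 such genes 4 rose, where 27.9% of all genes did: ZTL (0.21 ± 0.06), an F-box relative of FKF1, LWD1 (0.17 ± 0.07), a WD-repeat protein, PRMT5 (0.29 ± 0.05), an arginine methyltransferase, and TEJ (0.25 ± 0.10), a poly(ADP-ribose) glycohydrolase. For all 4 the libraries of the sets overlapped, and 1 of 9 genes was called after rescaling by the median of ratios or with 1 mean per replicate number. TIC averaged 45.3 ± 2.57 FPKM in replicates 3 and 4 and 45.1 ± 3.34 FPKM in replicates 1 and 2. CHE, whose place among weakly cycling genes is uncertain, differed by −0.10 (limma, adjusted p = 0.273). The list's median was 0.17, against −1.36 for dawn and morning genes, 1.07 for day genes, 1.58 for evening genes and 0.05 for all genes tested.

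**Figure D3:**
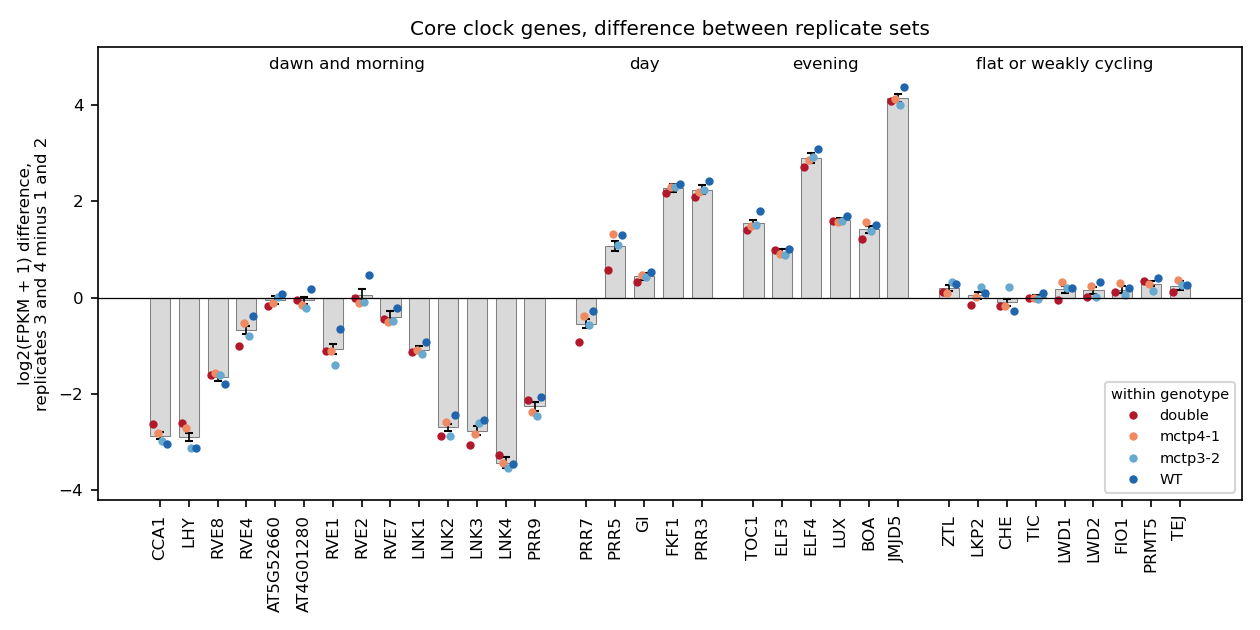
Difference in log2(FPKM + 1) between the replicate sets (y axis, replicates 3 and 4 minus 1 and 2) for each tested core clock gene (x axis, by known phase). Bars give the fit over 16 libraries with its standard error and points the differences within each genotype. They run from −3.42 (LNK4) to 4.14 (JMJD5) for the fit, and the 9 genes listed as flat or weakly cycling lie between −0.10 and 0.29.

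Each library was also placed by its own clock genes. These measures are built from the clock lists above, most of whose genes had already been seen to separate the sets. The gap between the sets on them therefore follows from those results and is no further support. The mean log2(FPKM + 1) of the dawn and morning genes minus that of the evening genes was −2.91 to −2.76 in the 8 libraries of replicates 3 and 4 (median −2.86), against 0.69 to 0.95 in the 8 of replicates 1 and 2 (median 0.81). The gap between the sets was wider than the spread within either. The ratio of LHY to TOC1 was 0.0302 to 0.0463 in replicates 3 and 4, against 0.897 to 1.53 in replicates 1 and 2, and that of CCA1 to TOC1 was 0.0197 to 0.0415, against 0.882 to 1.18. No library, double included, stood between the sets on any of these measures. The dawn and morning genes as a list had medians of −1.37 in double, −1.33 in mctp4-1, −1.5 in mctp3-2 and −1.36 in WT, and the evening genes 1.50, 1.57, 1.54 and 1.74 in the same genotypes. The day genes varied more, with medians of 0.57 in double, 1.32 in mctp4-1, 1.09 in mctp3-2 and 1.30 in WT.

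Clock outputs listed here with a morning peak, a grouping that these data cannot check, were mostly lower in replicates 3 and 4. Of 10 tested 7 fell and 2 rose, with a median of −0.56, where 16.6% of all genes tested fell and 27.9% rose. GBSS1, PIF4 and PIF5 did not pass the filter on low values. CDF3 (AT3G47500), a DOF repressor removed by FKF1 and GI, was at 5.28, 6.34 and 7.2 FPKM in replicates 3 and 4, against 24.8, 29.2 and 34.4 FPKM in replicates 1 and 2, and fell by 2.07 ± 0.08 (adjusted p = 1.03e-11). Its relatives CDF2 (AT5G39660) and CDF1 (AT5G62430) fell by 0.54 ± 0.09 and 0.52 ± 0.14, and the Dof-type locus AT1G69570 by 1.1 ± 0.09. CDF1 was not called with 1 mean per replicate number (limma, adjusted p = 0.0654). The B-box gene BBX19 (AT4G38960) fell by 1.24 ± 0.08 (7.77 ± 1.38 FPKM in replicates 3 and 4 and 19.5 ± 1.77 FPKM in replicates 1 and 2), BBX18 (AT2G21320) by 0.87 ± 0.11 and COL1 (AT5G15850) by 0.57 ± 0.12. The exceptions were CAT2 (AT4G35090), a catalase, which rose by 0.43 ± 0.06, and DREB2C (AT2G40340), a stress-response factor, which rose by 1.1 ± 0.14; COL2 (AT3G02380) differed by −0.28 (adjusted p = 0.0594).

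Outputs listed here with an evening peak, a grouping that these data cannot check either, did not move as a block. Of 9 tested 4 rose, 3 fell and 2 were not called, with a median of 0.10. The shares over all genes tested were 27.9% higher and 16.6% lower. GRP7 (AT2G21660), an RNA-binding protein that regulates its own transcript, was at 2041, 2486 and 2928 FPKM in replicates 3 and 4, against 699, 823 and 1044 FPKM in replicates 1 and 2, a rise of 1.55 ± 0.09 (adjusted p = 4.65e-09). Its paralog GRP8 (AT4G39260) rose by 0.39 ± 0.08 with overlapping libraries, and reads of the pair may have been shared in the authors' counting. COR27 (AT5G42900), a cold-regulated repressor of clock genes, was at 8.42, 10.2 and 12.6 FPKM in replicates 3 and 4, against 0.50, 0.976 and 1.80 FPKM in replicates 1 and 2. It rose by 2.52 ± 0.11. The locus AT4G33980, whose product the annotation used here calls only an uncharacterized protein, rose by 2.25 ± 0.11. The 3 that fell were BBX24 (AT1G06040, by 1.39 ± 0.07), BBX25 (AT2G31380, by 1.53 ± 0.14) and GOLS1 (AT2G47180, by 2.11 ± 0.08), of which the first 2 are B-box factors of light signalling and the third makes galactinol. CAT3 averaged 104 ± 21.3 FPKM in replicates 3 and 4 and 106 ± 13.6 FPKM in replicates 1 and 2, and CKB4 differed by 0.10 (adjusted p = 0.117).

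The evening element was searched for as AAAATATCT on both strands in the 500 bases before the annotated start of 19167 tested genes. It stood in 4.45% of all these windows and in 31.0% (26 of 84) of those of genes that rose by more than 1 on the log2 scale. Among genes that fell by more than 1 it stood in 3.91% (10 of 256), and over all called genes the shares were 5.05% of those higher and 3.87% of those lower. The cut at 1 was chosen after these differences were seen. By size of the difference, the share was 4.23% for differences of 0 to 0.5, 8.81% for 0.5 to 1 and 28.3% above 1 (92 genes, called or not), and 3.3 to 4.55% in every bin below 0. The genes that rose by more than 1 and held the element included, besides clock genes, SEX1 of starch breakdown, the metallothionein MT2A, the pyruvate decarboxylase PDC2 and DREB2A, which were picked out here after their values were seen. Windows may reach into neighbouring genes, which was not checked, and a match is a description of letters only.

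The other motifs were examined in the same windows. The CCA1-binding site AAAAATCT, which can share letters with no copy of the evening element, stood in 12.2% of all windows, 9.52% of those of genes higher by more than 1 and 10.9% of those of genes lower by more than 1. The G-box CACGTG, bound by bZIP and bHLH factors, stood in 10.1%, 14.3% and 15.2% of the same windows, and the morning element CCACAC in 12.1%, 17.9% and 10.9%. In the bin of differences of −2 or less, with 22 genes, the G-box stood in 36.4% of windows, against 9.61 to 14.1% in the other bins. The protein box ATGGGCC stood in 11% of all windows but in 3.57% and 5.86% of those of genes higher and lower by more than 1, and the telo box AAACCCT in 11.3%, 13.1% and 7.42%.

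**Figure D4:**
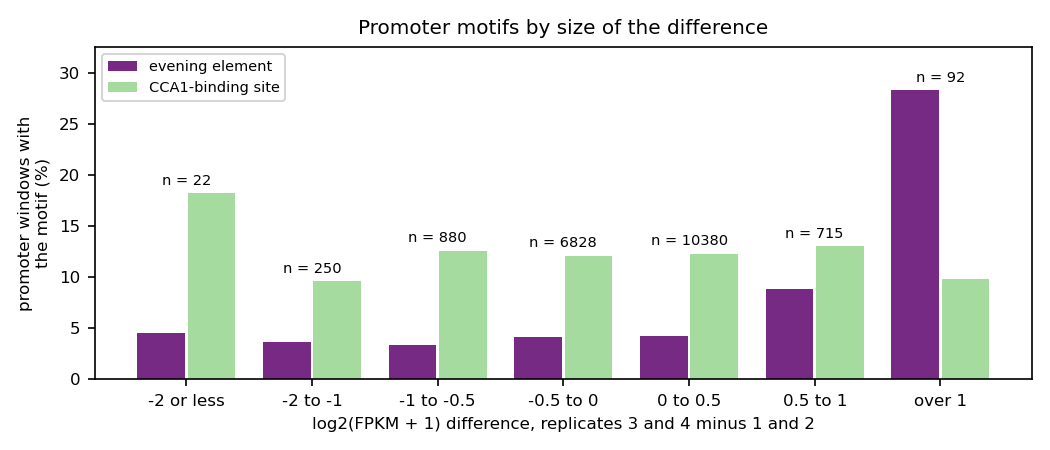
Share of promoter windows of 500 bases that hold the evening element or the CCA1-binding site (y axis, %) by the log2(FPKM + 1) difference between replicates 3 and 4 and replicates 1 and 2 (x axis, bins); n is the number of genes in a bin. The evening element stands in 28.3% of the 92 windows in the bin over 1 and in 3.3 to 8.81% of the other bins, while the CCA1-binding site stands in 9.6 to 18% of the windows across bins, the highest share being that of the bin with 22 genes.

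The evening element stood in the windows of 3 of 6 evening genes, 2 of 5 day genes, 1 of 14 dawn and morning genes and 5 of 9 evening outputs. The stretches below show the copies nearest to the start for 7 genes that rose and 2 that fell, so that the shared letters can be seen. They are from RefSeq's TAIR10.1 and read 5′ to 3′ towards the gene; the element is in capitals, and AGATATTTT is its reverse complement.
GRP7 (chr2:9266558-9266677, minus strand): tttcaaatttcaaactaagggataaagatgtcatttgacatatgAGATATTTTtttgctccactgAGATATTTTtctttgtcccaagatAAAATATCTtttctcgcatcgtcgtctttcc
GRP8 (chr4:18275217-18275336, minus strand): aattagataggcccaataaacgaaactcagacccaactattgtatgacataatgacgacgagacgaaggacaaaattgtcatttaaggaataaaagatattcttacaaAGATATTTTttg
LUX (chr3:17182922-17183041, plus strand): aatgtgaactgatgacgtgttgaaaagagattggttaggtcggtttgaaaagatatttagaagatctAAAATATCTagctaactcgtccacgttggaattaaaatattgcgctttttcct
BOA (chr5:24003768-24003887, plus strand): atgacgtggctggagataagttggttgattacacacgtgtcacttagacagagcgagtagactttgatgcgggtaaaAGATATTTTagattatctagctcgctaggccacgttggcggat
TOC1 (chr5:24674756-24674875, plus strand): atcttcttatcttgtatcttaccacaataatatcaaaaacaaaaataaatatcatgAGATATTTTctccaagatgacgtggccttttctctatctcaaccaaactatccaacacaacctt
FKF1 (chr1:25508397-25508516, plus strand): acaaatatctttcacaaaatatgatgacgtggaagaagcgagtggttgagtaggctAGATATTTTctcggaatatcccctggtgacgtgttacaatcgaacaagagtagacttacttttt
PRR5 (chr5:8358670-8358789, minus strand): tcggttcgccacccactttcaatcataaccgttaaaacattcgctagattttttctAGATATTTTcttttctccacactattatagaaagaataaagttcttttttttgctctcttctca
BBX24 (chr1:1829984-1830103, minus strand): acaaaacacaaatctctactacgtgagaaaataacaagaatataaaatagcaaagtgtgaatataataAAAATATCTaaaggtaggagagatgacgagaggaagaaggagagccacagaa
RVE7 (chr1:6308244-6308363, minus strand): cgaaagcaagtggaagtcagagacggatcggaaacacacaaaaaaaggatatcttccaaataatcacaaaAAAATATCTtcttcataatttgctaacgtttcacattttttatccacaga

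GRP7, which rose by 1.55, held 3 copies within 76 bases of its start. LUX and BOA held their copy 53 and 43 bases before the start. BBX24, which fell by 1.39, and RVE7, which fell by 0.41, held a copy at nearly the same distance, 52 and 50 bases before the start, so the letters and the direction did not go together in every gene. ELF4 and JMJD5, with the largest rises, held no exact copy in their windows. Among genes whose stretches are not shown, BBX28, which fell by 2.63, held a copy 393 bases before its start. COL2 and CAT3, which were not called, and COR27 and PDF2.1, which rose, also held the element.

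Genes of starch breakdown, a process of the night, were mostly higher in replicates 3 and 4. Of 12 tested 8 rose and 1 fell, with a median of 0.77, where 27.9% of all genes tested rose and 16.6% fell. PHS1 and PHS2, the plastidial and cytosolic starch phosphorylases, rose by 1.36 ± 0.08 and 1.26 ± 0.07; PHS1 was at 16.0, 20.4 and 22.1 FPKM in replicates 3 and 4, against 5.47, 7.35 and 8.34 FPKM in replicates 1 and 2. SEX1, the glucan water dikinase that opens the granule surface, rose by 1.2 ± 0.09 (17.7 ± 1.74 FPKM in replicates 3 and 4 and 7.2 ± 1.42 FPKM in replicates 1 and 2), and the debranching enzyme ISA3 rose by 0.84 ± 0.06. Of the 12 tested, 7 were higher without overlap between the sets, where 7.42% of all genes tested were so. The gene that fell, the beta-amylase BAM1, fell by 0.30 ± 0.05, also without overlap (4.27% of all genes tested in this direction).

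Genes induced by darkness and sugar shortage rose in 11 of 19 cases, against 27.9% of all genes tested, and fell in none. Their median was 0.56. The median was 0.17 in double, 0.55 in mctp4-1, 0.36 in mctp3-2 and 0.95 in WT. DRM2, a dormancy-associated gene, was at 647, 888 and 1113 FPKM in replicates 3 and 4, against 203, 312 and 902 FPKM in replicates 1 and 2, where double replicate 2 was the library at 902. TPS10, a class II trehalose-phosphate synthase homolog, rose by 0.63 ± 0.09. It was the only member of the list without overlap between the sets, where 7.42% of all genes tested were higher without overlap. TPS9 rose by 0.56 ± 0.11 and DRM1 by 1.19 ± 0.22. Double replicate 2 also had the highest level of DIN1, a senescence-associated gene that was not called, at 59.2 FPKM, where the 15 other libraries had 0.748 to 14.9 FPKM.

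Genes of green tissue, used as markers of shoot or greened root cells, were lower in replicates 3 and 4. Of 25 tested 17 fell, against 16.6% of all genes tested, and none rose, with a median of −0.45. Without overlap were 3 of the 25, all lower, where 4.27% of all genes tested were so in this direction. LHCB2.1, a light-harvesting protein of photosystem II, was at 0.226, 0.488 and 1.48 FPKM in replicates 3 and 4, against 3.83, 8.97 and 22.3 FPKM in replicates 1 and 2, and fell by 2.55 ± 0.26. LHCB3 fell by 1.35 ± 0.14 (14.0 ± 3.32 FPKM in replicates 3 and 4 and 37.1 ± 8.20 FPKM in replicates 1 and 2), LHCA4 by 1.1 ± 0.16 and LHCB6 by 0.89 ± 0.14. The summed level of the list was 490 to 1013 FPKM in replicates 3 and 4, against 685 to 1541 FPKM in replicates 1 and 2, and 6 of the 31 listed genes, RBCS1B and LHCB2.2 among them, did not pass the filter on low values. In bulk roots, fewer cells of a type and less RNA per cell cannot be told apart, and the antenna genes are themselves clock-regulated; the part of tissue makeup in the other differences was not tested. The list's median was −0.97 in double, −0.67 in mctp4-1, −0.25 in mctp3-2 and −0.17 in WT. Double replicate 2 held the highest sum, 1541 FPKM, and the highest LHCB2.1 level, 22.3 FPKM, where double replicate 1 had 731 and 5.82 FPKM.

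Markers of root cell types moved little. Endodermis markers summed to 439 to 548 FPKM in replicates 3 and 4, against 410 to 633 FPKM in replicates 1 and 2, and none of 8 was called. Xylem markers summed to 308 to 463 FPKM, against 302 to 413 FPKM, root hair markers to 126 to 245 FPKM, against 102 to 203 FPKM, and phloem markers to 66.6 to 95.8 FPKM, against 69.4 to 111 FPKM, in the same order of sets. Root cap markers summed to 75.5 to 112 FPKM in replicates 3 and 4, against 63.5 to 89.6 FPKM in replicates 1 and 2. Called higher, by 0.46 or less, were 2 of 8 for xylem (CESA4 and CESA8), 2 of 6 for root hair (RSL4 and RHD6), 2 of 4 for root cap (BRN2 and BRN1) and 1 of 6 for phloem (CALS7), where 27.9% of all genes were. After rescaling by the median of ratios 1 xylem marker was higher and 2 were lower, and 1 phloem marker was higher and 1 lower. CESA8, RHD6 and BRN1 were not called with 1 mean per replicate number. The root markers were thus present in all libraries, and their ranges overlapped between the sets.

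Genes of the cell cycle and DNA replication rose by small amounts: 12 of 16 were higher and 1 was lower, with a median of 0.21. Among all genes tested 27.9% were higher and 16.6% lower. Of the list, 7 were higher after rescaling by the median of ratios and 6 with 1 mean per replicate number. CYCB1;2 and CYCB1;4, mitotic cyclins, rose by 0.38 ± 0.05 and 0.32 ± 0.05, and CDKB2;1, their kinase partner, rose by 0.31 ± 0.05. CYCD3;1, a cyclin of cell cycle entry, fell by 0.37 ± 0.07.

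Light and flavonoid genes moved in both directions, where 27.9% of all genes tested rose and 16.6% fell. Of 19 light-signalling genes 6 rose and 6 fell; the B-box gene BBX20 rose by 1.18 ± 0.13, the bZIP factor HY5, which promotes light responses, by 0.72 ± 0.10 and the photolyase UVR3 by 0.60 ± 0.10, while the homeobox gene HB-2 fell by 0.48 ± 0.08. Of 10 flavonoid genes 6 rose and 2 fell. FLS1, flavonol synthase, was at 117, 140.2 and 156 FPKM in replicates 3 and 4, against 62.9, 75.1 and 85.8 FPKM in replicates 1 and 2, a rise of 0.91 ± 0.06. The hydroxylase TT7 rose by 0.92 ± 0.10 and the ligase 4CL3 by 0.89 ± 0.09, while UGT78D1, which adds rhamnose to flavonols, fell by 1.38 ± 0.09 (1.47 ± 0.349 FPKM in replicates 3 and 4 and 5.43 ± 0.667 FPKM in replicates 1 and 2).

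Among stress lists, the cold and abscisic acid genes KIN1 and KIN2 stood out. KIN1 averaged 61.4 ± 10.4 FPKM in replicates 3 and 4 and 231 ± 26.3 FPKM in replicates 1 and 2, and KIN2 averaged 280 ± 46.5 FPKM in replicates 3 and 4 and 1063 ± 170 FPKM in replicates 1 and 2. They fell by 1.91 ± 0.08 and 1.92 ± 0.12, and reads of the pair may have been shared in the authors' counting. COR47, a dehydrin of the same regulon, rose by 0.39 ± 0.09. GOLS3 fell by 0.71 ± 0.14, and over the list 2 rose and 5 fell of 9. Of 10 heat shock genes 6 rose and 1 fell. The factor HSFA2 rose by 0.82 ± 0.10, the co-activator MBF1C by 1.55 ± 0.19 and the chaperone HSP90.1 by 0.55 ± 0.09, while the small heat shock protein HSP18.2 fell by 0.82 ± 0.11. Touch genes rose in 2 of 13 cases (TCH3 and ERF6) and immunity genes in 2 of 4 (MYB51 and PAD3), with 7 other immunity genes not tested. Jasmonate genes fell in 3 of 8 (JAZ7, VSP1 and VSP2). Over all genes tested 27.9% rose and 16.6% fell. The touch list held few calls, but its median difference was 0.56, against 0.05 for all genes tested. ERF6, PAD3 and VSP2 were not called with 1 mean per replicate number.

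Water channels and glucosinolate genes were more often lower than higher, where 16.6% of all genes tested fell and 27.9% rose. Of 13 aquaporins 8 fell and none rose, with a median of −0.35: PIP2;5 fell by 0.89 ± 0.13, PIP2;3 by 0.64 ± 0.12, PIP1;4 by 0.41 ± 0.06 and PIP2;8 by 0.39 ± 0.09. PIP2;5 is the lowest of these in level, at 0.998 ± 0.275 FPKM in replicates 3 and 4 and 2.80 ± 1.05 FPKM in replicates 1 and 2. Of 11 genes of glucosinolate synthesis, the sulfur-rich defence compounds, 7 fell and none rose, with a median of −0.50; it was 0.02 in double, −0.51 in mctp4-1, −0.57 in mctp3-2 and −0.74 in WT. SOT17, a sulfotransferase of the last step, fell by 1.08 ± 0.07 (17 ± 2.9 FPKM in replicates 3 and 4 and 38.6 ± 8.89 FPKM in replicates 1 and 2), BAT5, a plastid transporter, by 0.78 ± 0.10, SUR1, a C-S lyase, by 0.56 ± 0.08 and the UDP-glycosyltransferase locus AT2G31790 by 0.65 ± 0.14.

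Nutrient genes gave mixed counts, to be read against 27.9% of all genes tested that rose and 16.6% that fell. Of 21 nitrate genes 5 rose and 6 fell; the BTB protein gene BT1 rose by 1.46 ± 0.18 (76.0 ± 23.0 FPKM in replicates 3 and 4 and 26.3 ± 6.56 FPKM in replicates 1 and 2) and the myb-like locus AT1G25550 by 0.36 ± 0.05, while RFNR2, a root ferredoxin-NADP reductase, fell by 0.64 ± 0.10 and LBD39, a repressor of nitrate responses, by 0.46 ± 0.06. With 1 mean per replicate number 3 nitrate genes rose and 2 fell. Of 15 iron-deficiency genes 2 rose and 3 fell: BHLH100 rose by 1.16 ± 0.17 and BTS by 0.24 ± 0.08, and AT1G47395 fell by 1.07 ± 0.20 and OPT3 by 0.41 ± 0.10. All 3 ferritins, the iron stores, rose (FER1 by 0.52 ± 0.07, FER4 by 0.30 ± 0.07 and FER3 by 0.16 ± 0.04), FER3 without a call with 1 mean per replicate number. Of 9 sulfur genes APR1 and LSU2 fell, of 11 phosphate genes SPX1 and PHT1;4 fell and SQD2 rose, and of 11 auxin genes 1 rose and 4 fell, among them GH3.3 and IAA3 by 0.38 ± 0.09 and 0.28 ± 0.08. None of these auxin genes was called with 1 mean per replicate number.

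**Figure D5:**
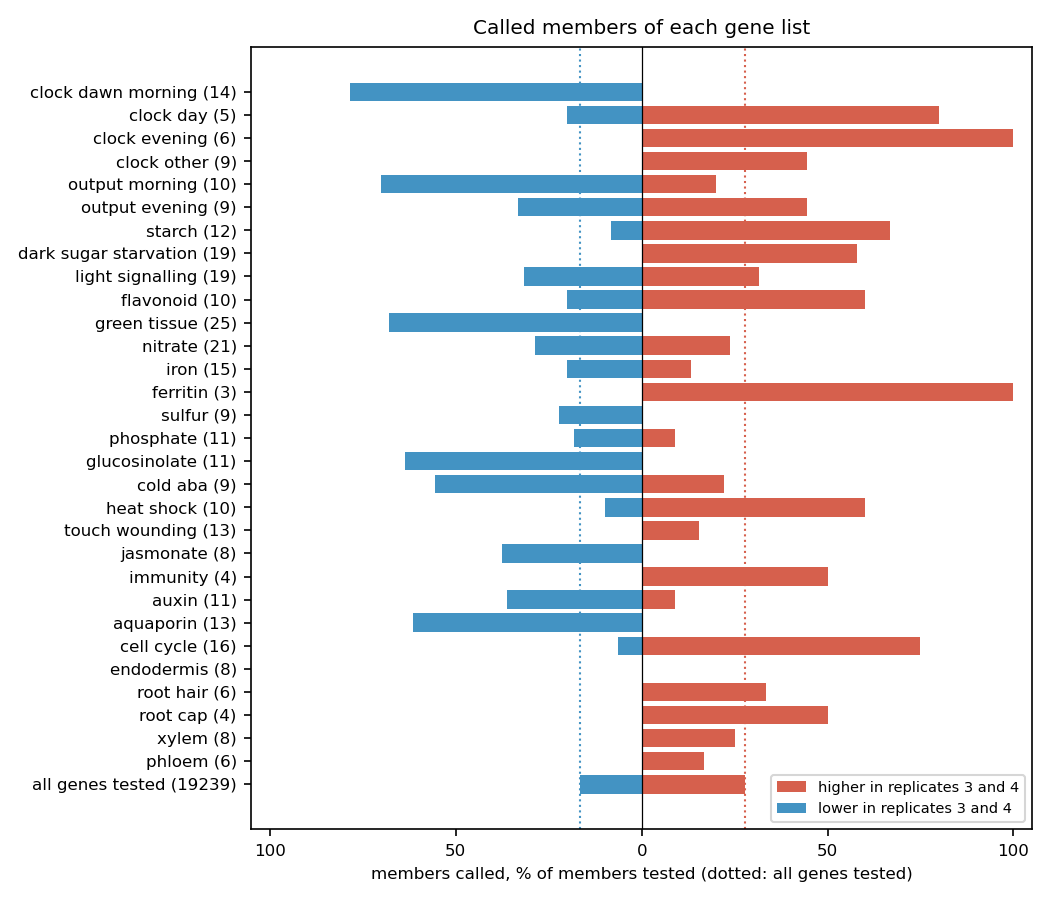
Share of the tested members of each gene list (number tested in brackets) that were called higher (right) or lower (left) in replicates 3 and 4 than in replicates 1 and 2 (x axis, %; limma, adjusted p under 0.05). Dotted lines give the shares over all 19239 genes tested, 27.9% higher and 16.6% lower; all 6 evening clock genes were higher and 11 of 14 dawn and morning genes were lower.

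Of the 12 largest decreases with separated sets, 5 were the clock genes LNK4, LHY, CCA1, LNK3 and LNK2. The largest was AT4G03540, annotated as a member of the UPF0497 family, at 4.25, 5.14 and 6.70 FPKM in replicates 3 and 4, against 81.3, 103 and 120 FPKM in replicates 1 and 2, a fall of 4.03 ± 0.12 (adjusted p = 2.14e-12). The adenosylmethionine decarboxylase locus AT5G15950, an enzyme class of polyamine synthesis, averaged 8.54 ± 1.64 FPKM in replicates 3 and 4 and 70.7 ± 6.55 FPKM in replicates 1 and 2. The hydroxyproline-rich PELPK2 averaged 56.9 ± 6.94 FPKM in replicates 3 and 4 and 323 ± 29.4 FPKM in replicates 1 and 2. The rest were LHCB2.1, the B-box gene BBX28 (2.63 ± 0.14 lower), the beta-glucosidase BGLU7 (2.60 ± 0.16 lower) and the lipid-transfer family locus AT2G37870 (2.51 ± 0.15 lower).

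Of the 12 largest increases, 6 were on the clock and clock output lists (JMJD5, ELF4, COR27, FKF1, AT4G33980 and PRR3). PDF2.1, a defensin-like knottin, was at 60.2, 126 and 178 FPKM in replicates 3 and 4, against 5.97, 20.9 and 36.8 FPKM in replicates 1 and 2, and rose by 2.54 ± 0.19. AT1G11210, of the DUF761 family, rose by 2.44 ± 0.09, the Rossmann-fold locus AT2G23910 by 2.21 ± 0.09, the heme-binding SOUL family locus AT1G78460 by 2.18 ± 0.22, the DnaJ-domain locus AT1G56300 by 2.11 ± 0.07 and the lipase gene GLIP2 by 2.05 ± 0.12. AT1G56300 was at 33.4 to 41.0 FPKM in replicates 3 and 4, against 6.45 to 10.9 FPKM in replicates 1 and 2.

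The difference between the replicate sets was also fitted within each genotype. Each genotype gave 2 against 2 libraries, with a shared estimate of the spread. Within double 1504 genes were called (7.82%; 3.84% higher and 3.98% lower), and within mctp4-1 915 (4.76%; 2.41% higher and 2.35% lower). Within mctp3-2 841 were called (4.37%; 1.55% higher and 2.82% lower), and within WT 3259 (16.9%; 11.1% higher and 5.88% lower). These counts depended on single libraries: 355 were called in double without its replicate 3, 268 in mctp4-1 without its replicate 4, 326 in mctp3-2 without its replicate 4 and 778 in WT without its replicate 4. Across the 19239 genes the differences of 2 genotypes, which share no library, correlated at r = 0.63 to 0.70, given as a description since genes are not independent. The number of genes called within each of the 4 genotypes was 424, of which 162 were higher and 262 lower. The interaction of genotype and replicate set was called for 1 of 19239 genes (0.0052%; limma F-test), and 603 had an unadjusted p under 0.05. That gene was AT5G36925, an uncharacterized locus at 0 to 1.95 FPKM in replicates 3 and 4 and 0 to 4.87 FPKM in replicates 1 and 2, with differences of −0.02 in double, −2.38 in mctp4-1, −0.97 in mctp3-2 and 1.24 in WT (adjusted p = 0.00905). The next smallest p-values belonged to AT5G01740, AT3G19430, BGAL2 and TET5 (adjusted p = 0.533 to 0.842). Leaving out libraries gave 0 to 3 calls for the interaction, and no interaction was detectable for the clock genes with 2 libraries for each genotype and set.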

How the data were processed

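Root RNA of 16 samples was extracted with Trizol and sequenced from stranded polyA libraries, per the labels' protocols. Per the submitters' processing notes, HISAT2 and Cufflinks were used with TAIR10; neither versions nor strand setting appear in the sources used. The deposited values are FPKM by the authors, already scaled for length and library size. Low values fell on whole-read steps for 4.42 to 12.2% of low genes (tolerance 0.005 log2), so counts could not be recovered and no count test was run. Of 33560 genes, 32826 matched RefSeq's TAIR10.1 annotation.

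Genes with FPKM of at least 1 in 4 or more libraries were tested on log2(FPKM + 1) with limma 3.58.1 in R 4.3.3 (trend, robust, 2-sided, Benjamini-Hochberg adjusted p under 0.05), with genotype as block; a fit with 8 cells of genotype and replicate set gave within-genotype differences and the interaction. Fold changes on this scale understate low genes. The fits were tested on simulated data. Members, 31 gene lists (372 members) and tests were chosen with earlier results of these data known. Named genes are all members of the clock lists, up to 4 called members of other lists by smallest adjusted p, the 12 largest changes each way with separated sets, and 5 genes by interaction p; BAM1, DIN1 and the promoter genes were named after their values were seen. Alternatives covered the pseudocount, filter, scaling, moderation, blocks and left-out libraries. Promoter stretches are shown for 9 genes, and those of other genes are not reported here.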

Additional observations from a re-analysis of the deposited data

Results flagged for a closer look

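Within a replicate set of 8 libraries, 1 value stood far from the other 7 in 13 of 288 groups examined (4.51%; chance flags about 1 in 20 groups). In replicates 3 and 4, TOC1 was at 57.9 FPKM in WT replicate 4 (others 47.3 to 50.7), COL2 at 1.65 in mctp3-2 replicate 4 (0.881 to 1.17), RHD6 at 21.5 in double replicate 3 (14.5 to 16.7), ISA3 at 16.4 in mctp4-1 replicate 3 (19.1 to 20.1), PIP2;8 at 8.99 in double replicate 4 (11.5 to 14.0) and AT2G23910 at 19.0 in WT replicate 3 (28.5 to 35.5). In replicates 1 and 2, double replicate 1 was high for RVE8 (14.7 FPKM, others 10.8 to 12.4) and PIP2;8 (20.3, others 15.1 to 17.3) and low for MBF1C (5.50, others 11 to 15.1) and PDF2.1 (5.97, others 19.0 to 36.8). Double replicate 2 was high for ELF4 (54.7 FPKM, others 28.6 to 37.9), LWD1 (42.3, others 30.6 to 33.6) and AT2G37870 (249, others 82.4 to 127). Of the 13 values, 9 belonged to double.

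The difference between the sets depended on genotype for AT5G36925 (limma F-test of the interaction, adjusted p = 0.00905), where it was −2.38 in mctp4-1 and 1.24 in WT.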

How the results depend on the processing

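Of 144 named genes, 9 changed sign under some alternative, none of them among the 130 called: RVE2, AT5G52660, AT4G01280, TIC, LKP2, CAT3, AT5G01740, AT3G19430 and AT5G36925. RVE2, for example, was −0.07 without WT. Over the named genes and alternatives 4806 verdicts were the same, 183 lost the call and 17 gained it. The main comparison called 8551 genes, and 5643 without replicate 4 (3246 higher), the lowest of the counts that leave out libraries; the highest was 8454, without double replicate 1. Leaving out libraries gave 3246 to 5379 higher and 2227 to 3189 lower genes. It gave 355 to 2113 genes within double, 268 to 1112 within mctp4-1, 326 to 971 within mctp3-2, 778 to 3857 within WT and 0 to 3 for the interaction. The interaction called 1 gene in the main fit, 0 with FPKM of at least 1 in 8 libraries and 3 with no filter; the cause was not tested.

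No paired analysis was possible because the sets share no replicate number. With the replicate number as a block and an estimated correlation (−0.00175) 8574 genes were called. A fit on 4 means, 1 per replicate number, called 5488 (3372 higher, 2116 lower), of which 5382 were among the 8551. The means leave 2 against 2 values. ZTL, LWD1, TEJ and CDF1 lost their call there, and the clock genes named with separated sets kept theirs. After removal of the set, 16 of 24 pairs with the same number in different genotypes correlated above 0.1 (−0.25 to 0.34). The 6 pairs with double replicate 1 or 2 lay at −0.25 to −0.07, and the 18 others at 0.05 to 0.34. The estimated correlation pools both kinds of pair, so the count of 8574 does not show that libraries of the same number are independent.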
